A study of Mus musculus with 18 samples.

Results

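The E2F and DP transcription factors were followed under STAC3 RNAi and control RNAi in a myoblast line. The members are E2f1 to E2f8 with their DP partners Tfdp1 and Tfdp2, taken as all probes of these 10 genes in the authors' value table. They have 23 probes of 24538, and are 10 of the 13032 genes that a probe names singly. The cells are C2C12, an established mouse myoblast line that stops dividing and forms muscle fibres when serum is lowered. Every sample was transfected, either with an RNAi directed at STAC3 or with a control RNAi of high GC content. At day 1 the cells had spent a day in differentiation medium with 2% serum, 48 h after transfection, and RNA was taken from 4 STAC3 RNAi samples and 4 control samples. At day 0 they were in growth medium with 20% serum, 24 h after transfection, with 4 STAC3 RNAi samples and 3 control samples (replicates 2, 3 and 4). The 15 samples were put on 18 Illumina bead arrays, and the repeat arrays of 3 samples were averaged with their first arrays.

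E2F proteins bind DNA as pairs with a DP protein and set the expression of genes for DNA replication and the cell cycle. E2f1, E2f2 and E2f3 are activators that are held in check by the retinoblastoma protein until cyclin-dependent kinases phosphorylate it. E2f4 and E2f5 act mainly as repressors with the pocket proteins in resting cells, E2f6 represses without pocket proteins, and E2f7 and E2f8 are repressors that need no DP partner. Withdrawal of myoblasts from the cell cycle, which precedes fusion into muscle fibres, depends on the retinoblastoma protein.

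Myod1, Des, Cdh15, Itga7 and Chrna1 are markers of myoblasts and were detected on all 18 arrays, while Myf5, another of them, was detected on 1. Of the markers of other cell types that have a probe, Adipoq of fat cells was detected on 2 arrays and the endothelial Cdh5 and leukocyte Ptprc on 1 each. Stac3 itself averaged 6.75 ± 0.05 in RNAi cells against 7.68 ± 0.21 in controls at day 1 (SD, n = 4 each), and 6.73 ± 0.05 (SD, n = 4) against 7.06 ± 0.09 (SD, n = 3) at day 0. All 8 RNAi samples were under the detection level for it. That level is 6.88 on the log2 scale of the authors' values. It was set so that the share of values above it equals the share of readings with a detection p-value under 0.01. For a single probe it is approximate. The labels call the replicates biological samples without saying whether each was transfected separately. Each p-value is thus set against the scatter of the samples at hand, which may be technical. Medium and time since transfection change together between the days and cannot be told apart. In RNA from a whole culture, fewer cells in a given phase of the cell cycle and less RNA per cell cannot be told apart. The labels name a single RNAi, and its effect on transcripts other than Stac3 was not tested separately. The 6 arrays that come last in the non-normalized table were dimmer, with median intensities of 50.4 to 57.3 against 65.5 to 85.5 for the other 12, and values within each set stand beside the results. The dimmer set holds 1 RNAi and 1 control sample of day 0 and a pair of each at day 1, so its tests are weak. Its repeat arrays, which include its only control of day 0, are of samples whose first arrays lie in the brighter set. Values within the sets thus share samples and are not independent.

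Promoter sequence is shown for Tfdp1, which rose under the RNAi on both days, and for E2f2 and E2f3, which fell at day 1 under the RNAi (E2f3 on 1 of its 2 probes), because a window of each holds a match to the E2F site. The windows run from 250 bases before to 50 bases after an annotated start, come from RefSeq on build GRCm38.p6, and are written 5′ to 3′ on the strand of the gene. Capitals mark a match to the E2F site, searched on both strands as TTTCCCGC, TTTCGCGC, TTTGCCGC or TTTGGCGC. A match was present in 744 of 32851 windows of all genes (2.26%) and in 5 of the 12 windows of members, which hold 4 distinct sites, since 2 overlapping windows of Tfdp1 share one. Windows for E2f4 and E2f5 were not used here.
Tfdp1, chr8:13338501-13338800, + strand: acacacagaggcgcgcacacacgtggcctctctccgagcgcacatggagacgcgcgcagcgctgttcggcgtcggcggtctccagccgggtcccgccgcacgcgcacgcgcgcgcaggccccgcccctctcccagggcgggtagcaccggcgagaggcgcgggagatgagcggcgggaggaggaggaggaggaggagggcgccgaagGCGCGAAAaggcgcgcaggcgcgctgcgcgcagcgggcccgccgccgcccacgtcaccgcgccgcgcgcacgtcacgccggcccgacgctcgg
E2f2, chr4:136172024-136172323, + strand: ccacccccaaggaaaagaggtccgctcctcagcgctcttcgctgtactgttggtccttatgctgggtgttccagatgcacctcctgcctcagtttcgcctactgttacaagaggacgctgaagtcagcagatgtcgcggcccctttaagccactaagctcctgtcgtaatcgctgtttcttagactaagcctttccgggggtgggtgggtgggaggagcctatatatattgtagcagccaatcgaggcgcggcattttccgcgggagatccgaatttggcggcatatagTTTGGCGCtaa
E2f3, chr13:29986014-29986313, - strand: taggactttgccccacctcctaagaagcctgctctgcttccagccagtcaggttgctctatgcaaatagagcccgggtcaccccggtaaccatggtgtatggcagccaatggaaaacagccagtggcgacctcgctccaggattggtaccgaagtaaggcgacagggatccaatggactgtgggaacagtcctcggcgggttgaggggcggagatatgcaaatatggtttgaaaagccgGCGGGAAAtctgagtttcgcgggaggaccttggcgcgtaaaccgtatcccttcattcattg
In Tfdp1 the match reads GCGCGAAA, which is TTTCGCGC on the opposite strand, and its first base lies at -43 from the start. E2f2 holds TTTGGCGC at 40 and E2f3 holds GCGGGAAA at -11, while a second window of each gene, inside the gene, has no match. The only window of E2f1 is set on a start 466 bases inside the annotated gene and holds no sequence upstream of the gene, so it is not printed. A further window of E2f7 has GCGGGAAA at -198. A match is a feature of the letters and not a measured binding site.

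Of the 23 probes 19 passed the detection filter (3 or more arrays with a detection p-value under 0.01) and were tested together with all 18408 probes that passed. They cover 9 of the 10 genes. All 4 probes of E2f7, an atypical repressor, failed the filter, with detection on 1 or 2 of 18 arrays and sample values from 6.66 to 7.0. E2f8, the other atypical repressor, was detected on 10 arrays. The other 18 probes were detected on 16 or 18 arrays. Levels are on the authors' log2 scale and are compared for 1 probe at a time, since probes differ in brightness.

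The first comparison asks what the RNAi against STAC3 did to the family in growing cells. E2f1 and Tfdp1 rose by more than 2-fold and E2f8 rose slightly, so that an activator E2F, a DP partner and 1 repressor were higher. At an adjusted p below 0.05, 3 of the 19 probes were called, all upward, beside 12.5% of all 18408 probes in either direction (6.7% up and 5.79% down). The groups did not overlap for 4 of the 19 probes, beside 27.1% of all probes. The median over the 19 probes was 0.12 on the log2 fold change scale. By the brightest probe of each gene, the median was 0.12 over the 9 measured members and 0.006 over all genes. The share of members called (15.8%) was thus near that of all probes, and the size of the change lies with E2f1 and Tfdp1.

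E2f1, the activator that is itself a target of E2F, stood at 10.19, 10.11, 10.10 and 10.11 in the RNAi samples of day 0, against 8.95, 8.96 and 8.92 in the controls. No RNAi sample came near a control sample. The log2 fold change was 1.18 (SE 0.07, 2.27-fold, limma adjusted p = 1.04e-07). It was 1.23 within the 12 brighter arrays and 1.07 within the 6 dimmer ones, where it did not pass (adjusted p = 0.0805 with 1 sample a group). Leaving out single samples gave 1.16 to 1.19.

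Tfdp1, which encodes DP1, the common DNA-binding partner of the E2Fs, had 10.68, 10.81, 10.89 and 10.88 in the RNAi samples, against 9.61, 9.38 and 9.22 in the controls. Every RNAi sample lay above every control sample. It rose by 1.41 (SE 0.09, 2.66-fold, limma adjusted p = 2.07e-07), with 1.38 within the 12 brighter arrays and 1.70 within the 6 dimmer ones.

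E2f8 had 7.11, 7.21, 7.10 and 7.23 in the RNAi samples, against 7.06, 6.94 and 6.92 in the controls. The groups did not overlap, but the values lie close to the detection level of 6.88. The difference of 0.19 (SE 0.06) passed by a small margin (limma adjusted p = 0.0440). The call was lost without any 1 of 9 single samples (STAC3 RNAi day 0 replicates 1, 2 and 4, control day 0 replicates 3 and 4, STAC3 RNAi day 1 replicates 1 and 2, control day 1 replicates 2 and 3), with values of 0.17 to 0.24 over all leave-outs and adjusted p up to 0.161. It was also lost within the 12 brighter arrays (0.20, adjusted p = 0.0644) and the 6 dimmer ones (0.22, adjusted p = 0.642), and with the replicate number as a block (0.19, adjusted p = 0.0683).

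The other members did not pass at day 0. One of the 5 probes of E2f6, the pocket-independent repressor, had 7.94, 8.07, 8.05 and 7.97 in RNAi samples against 7.89, 7.63 and 7.80 in controls, a difference of 0.24 (SE 0.08, limma adjusted p = 0.0618), which passed within the 12 brighter arrays (0.27, adjusted p = 0.0458) and without control replicate 2 of day 0 (0.29, adjusted p = 0.0497) or control replicate 2 (0.24, adjusted p = 0.0475) or 4 (0.24, adjusted p = 0.0467) of day 1. That probe also passed with first arrays alone (0.26, adjusted p = 0.0342). With all 18 arrays and the sample as a random block it passed too (0.23, adjusted p = 0.0499). In 20 of 26 alternatives it did not pass. The other 4 probes differed by 0.00 to 0.17. The largest of these (0.17, adjusted p = 0.102) passed only without control replicate 2 of day 0 (0.25, adjusted p = 0.0294). E2f2 differed by 0.12 (SE 0.13) and 0.29 (SE 0.17) on its probes, of which the second passed within the 12 arrays (0.44, adjusted p = 0.0417). E2f4, a repressor of resting cells, differed by 0.12 (SE 0.10) and E2f5, its relative, by -0.07 (SE 0.07). The probes of E2f3 differed by 0.01 and -0.08, and those of Tfdp2, the second DP gene, by -0.11 to 0.02. With SEs of 0.06 to 0.17 among these probes, changes of that order are not resolved.

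**Figure D1:**
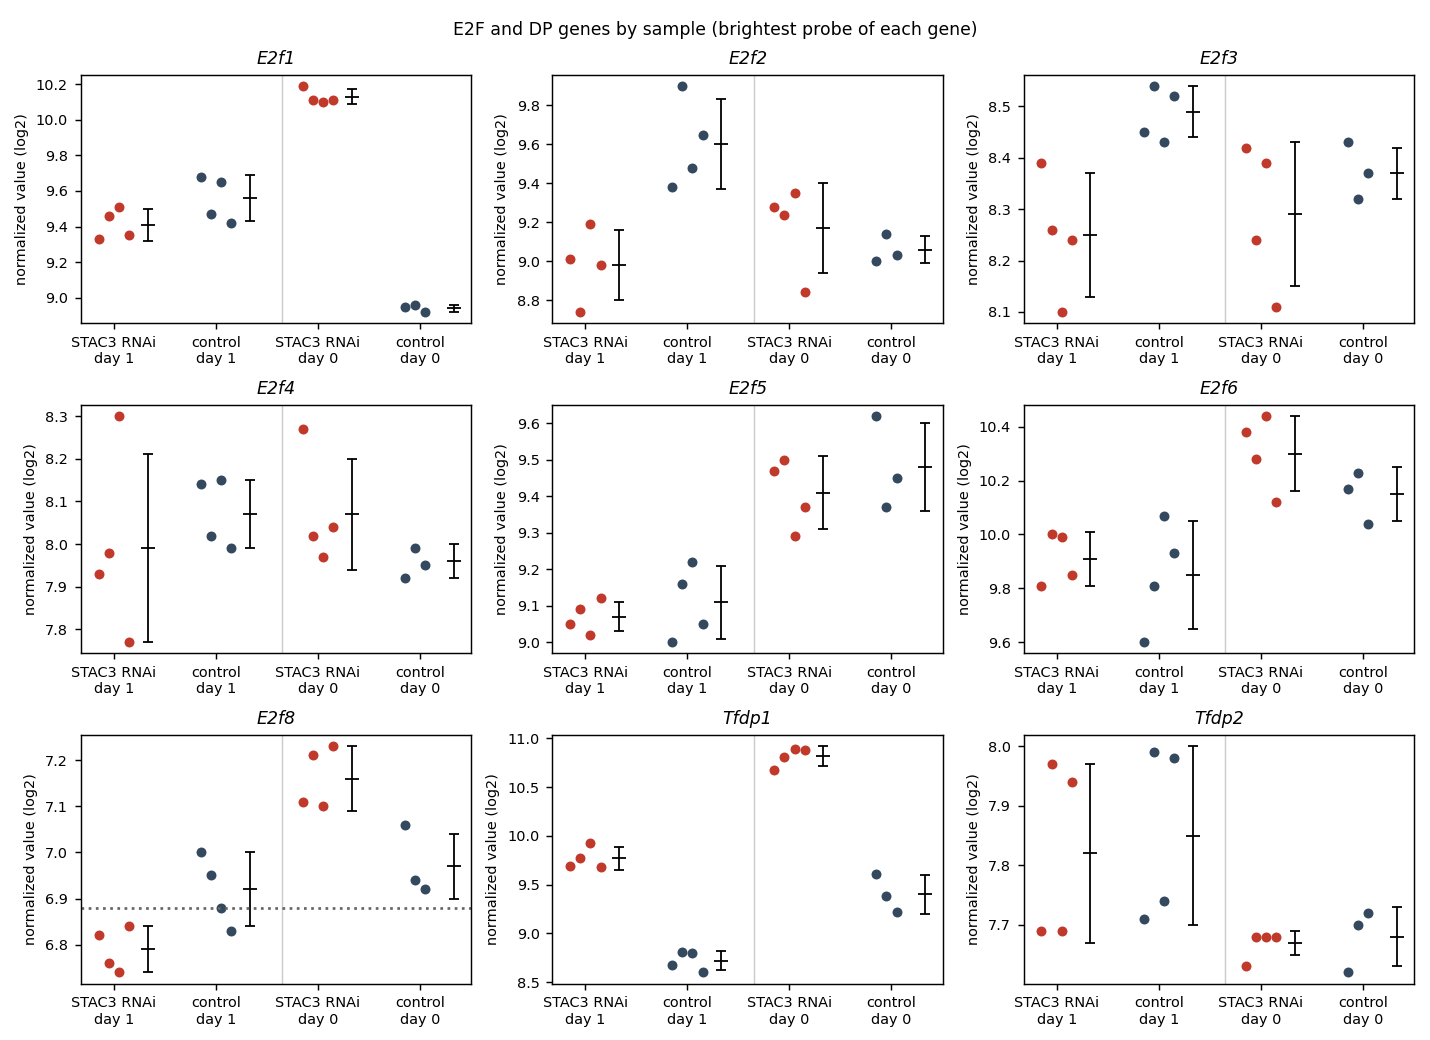
Values of each sample for the brightest detected probe of 9 genes, on the authors' log2 scale (each panel has its own axis, which does not start at 0). Red points are STAC3 RNAi samples and dark points control samples, the bar beside them gives the mean and SD (n = 4, or 3 for control at day 0), and the dotted line in the E2f8 panel is the detection level of 6.88. E2f1 and Tfdp1 in RNAi cells at day 0 stand clear of the controls, while at day 1 only Tfdp1 of these 2 does.

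The second comparison sets RNAi against control after a day in differentiation medium. Tfdp1 was again higher in RNAi cells, whereas E2f1 was not, and E2f2, 1 probe of E2f3 and 1 probe of Tfdp2 were lower. In all 5 of 19 probes were called, 1 up and 4 down, beside 33.1% of all probes (16.8% up and 16.2% down), and the members' share was 26.3%. The groups did not overlap for 5 of the 19, beside 28.2% of all probes. The median over the 19 probes was -0.12. By the brightest probe of each gene, the median was -0.08 over the 9 measured members and 0.014 over all genes. The markers of differentiated muscle moved with these results: Myog averaged 7.89 ± 0.40 in RNAi cells against 9.36 ± 0.55 in controls at day 1, Ckm 6.97 ± 0.14 against 8.45 ± 0.49, Mylpf 10.63 ± 0.88 against 13.06 ± 0.68 and Tnnc2 8.93 ± 0.62 against 11.13 ± 0.70 (SD, n = 4 each), so all 4 of the list were lower in RNAi cells, and their part in the results was not tested.

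Tfdp1 had 9.69, 9.77, 9.93 and 9.68 in the RNAi samples of day 1, against 8.68, 8.81, 8.80 and 8.60 in the controls. The groups did not overlap, and RNAi cells at day 1 were still above the controls of day 0. The log2 fold change was 1.04 (SE 0.08, 2.06-fold, limma adjusted p = 3.11e-07), 0.92 within the 12 brighter arrays and 1.14 within the 6 dimmer ones.

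E2f1 had 9.33, 9.46, 9.51 and 9.35 in the RNAi samples, against 9.68, 9.47, 9.65 and 9.42 in the controls. The groups overlapped, and the difference of -0.14 (SE 0.06) did not pass (limma adjusted p = 0.0965). It passed only without control replicate 4 (-0.19, adjusted p = 0.0340), and over the 15 leave-outs it ran from -0.19 to -0.10.

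E2f2, an activator like E2f1, had 9.01, 8.74, 9.19 and 8.98 in the RNAi samples against 9.38, 9.90, 9.48 and 9.65 in the controls on its brighter probe. All RNAi samples lay below all controls. The probe fell by 0.62 (log2 fold change -0.62, SE 0.12, limma adjusted p = 0.00114), with -0.79 within the 12 brighter arrays and -0.29 (adjusted p = 0.140) within the 6 dimmer ones. The other probe had 8.58, 8.54, 8.39 and 8.72 against 8.70, 9.57, 8.91 and 9.20, with 1 RNAi sample just above the lowest control. Its log2 fold change was -0.54 (SE 0.16, limma adjusted p = 0.0171), -0.55 and -0.42 within the 12 and the 6 arrays, and -0.38 (adjusted p = 0.0569) without control replicate 2. Over the 15 samples the 2 probes of E2f2 correlated at r = 0.85.

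The brighter probe of E2f3, the third activator, had 8.39, 8.26, 8.10 and 8.24 in RNAi samples against 8.45, 8.54, 8.43 and 8.52 in controls, without overlap. The log2 fold change was -0.24 (SE 0.07, limma adjusted p = 0.0173). That call was lost within the 12 arrays (-0.17, adjusted p = 0.123), within the 6 arrays (-0.24, adjusted p = 0.166), with first arrays alone (-0.21, adjusted p = 0.0588) and without STAC3 RNAi replicate 3 of day 1 (-0.19, adjusted p = 0.0560). The other E2f3 probe gave 0.04 (SE 0.06) and did not pass.

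Of the 5 probes of Tfdp2, the DP gene with alternative transcripts, 1 was called. It had 7.39, 7.42, 7.34 and 7.46 in RNAi samples against 7.68, 7.76, 7.62 and 7.98 in controls, without overlap. The log2 fold change was -0.36 (SE 0.07, limma adjusted p = 0.000896), -0.38 within the 12 arrays and -0.25 (adjusted p = 0.142) within the 6. The other 4 differed by -0.16 to -0.03 and did not pass. One of them (-0.16, adjusted p = 0.0797) passed without STAC3 RNAi replicate 1 (-0.21, adjusted p = 0.0290) or 4 (-0.19, adjusted p = 0.0451) of day 1, and with the replicate number as a block (-0.16, adjusted p = 0.0443). Tfdp1 was thus higher and this Tfdp2 probe lower in RNAi cells. E2f4 (-0.08), E2f5 (-0.04), E2f8 (-0.13, adjusted p = 0.0899) and the 5 probes of E2f6 (-0.12 to 0.06) did not pass.

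**Figure D2:**
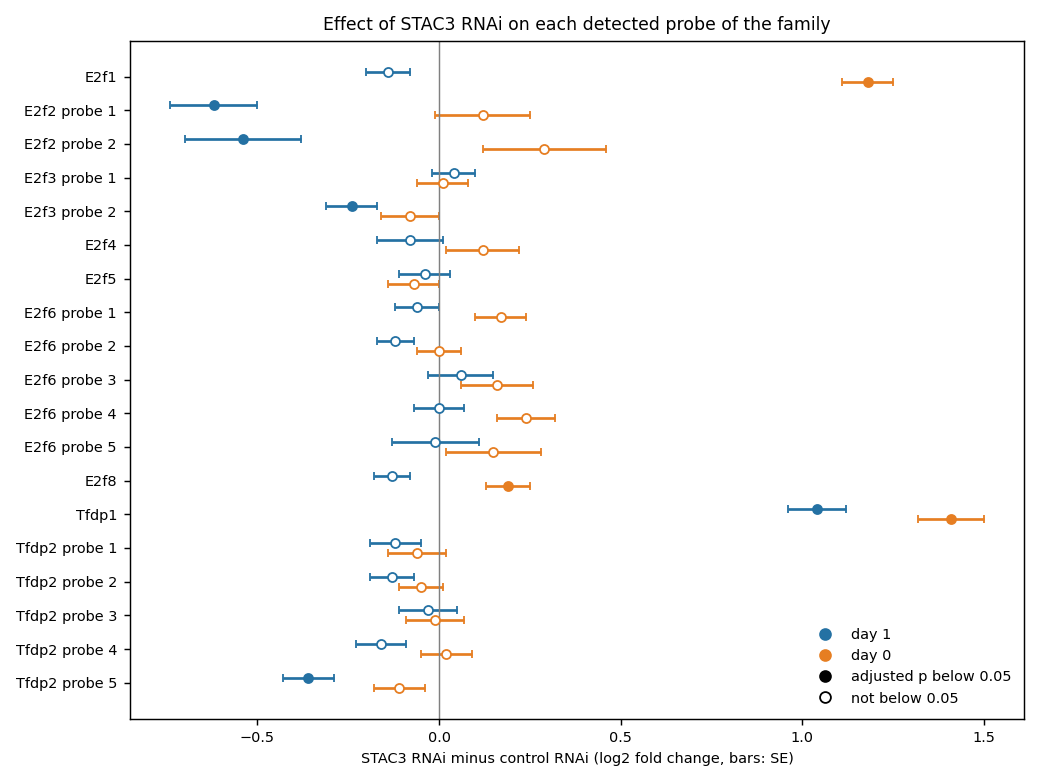
Log2 fold change of STAC3 RNAi over control for each of the 19 detected probes (points) with its SE (bars), at day 1 in blue and day 0 in orange. Filled points have a limma adjusted p below 0.05. Tfdp1 is far to the right on both days, E2f1 at day 0 alone, and both E2f2 probes lie to the left at day 1.

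The effect of the RNAi was then compared between the days, as the effect at day 1 minus that at day 0. E2f1 gave the clearest difference, with an effect of -0.14 at day 1 and 1.18 at day 0. The difference was -1.33 (SE 0.09, limma adjusted p = 5.01e-06), -1.34 within the 12 brighter arrays and -1.36 within the 6 dimmer ones (adjusted p = 0.317 there). The brighter E2f2 probe, with -0.62 and 0.12, differed by -0.74 (SE 0.18, adjusted p = 0.0311), and E2f8, with -0.13 and 0.19, by -0.32 (SE 0.08, adjusted p = 0.0342), with all 4 RNAi samples of day 1 under the detection level. Within the 12 and the 6 arrays these were -0.99 and -0.19 for E2f2, and -0.31 and -0.34 for E2f8. Single samples decide both calls. The E2f2 call was lost without STAC3 RNAi replicate 1, 2 or 3 or any control of day 0, or without STAC3 RNAi replicate 2 or control replicate 2 or 4 of day 1 (-0.78 to -0.64, adjusted p up to 0.0823). The E2f8 call was lost without STAC3 RNAi replicate 2 or 4 or control replicate 3 or 4 of day 0, without STAC3 RNAi replicate 2 or 3 or control replicate 1 or 2 of day 1 (-0.31 to -0.29, adjusted p up to 0.0931), and within the 12 arrays (adjusted p = 0.0771). The second E2f2 probe gave -0.83 (SE 0.24, adjusted p = 0.0592) and passed within the 12 arrays (-0.99, adjusted p = 0.00900). For Tfdp1 the effects of 1.04 and 1.41 differed by -0.37 (SE 0.12), which did not pass (adjusted p = 0.110). It passed when control replicate 2 of day 0 was left out (-0.47, adjusted p = 0.0488) and with the replicate number as a block (-0.40, adjusted p = 0.0420). In this comparison 3 of 19 probes were called (15.8%), all of them downward, beside 4.7% of all probes in either direction (2.23% up and 2.47% down).

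The change from day 0 to day 1 went in opposite directions for E2f1 in the 2 treatments. In RNAi cells E2f1 fell by 0.71 on the log2 scale (-0.71, SE 0.06, limma adjusted p = 2.32e-07), and in control cells it rose by 0.61 (SE 0.07, limma adjusted p = 4.03e-06). Neither pair of days overlapped. The changes were -0.74 and 0.60 within the 12 brighter arrays, and -0.71 and 0.65 within the 6 dimmer ones. Its highest mean was 10.13 ± 0.04 (SD, n = 4) in RNAi cells of day 0 and its lowest 8.94 ± 0.02 (SD, n = 3) in controls of day 0. Between them lay 9.41 ± 0.09 in RNAi cells and 9.56 ± 0.13 in controls of day 1 (SD, n = 4 each), neighbours whose difference did not pass.

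Among the other activators, E2f2 rose in control cells by 0.54 (SE 0.13, limma adjusted p = 0.00440) and 0.60 (SE 0.17, limma adjusted p = 0.0132) on its 2 probes. The day 1 controls lay above the day 0 controls without overlap on both. Within the 12 arrays the rises were 0.62 and 0.77, and within the 6 they were 0.44 and 0.24, not passing. The second call was also lost without control replicate 3 of day 0 (0.54, adjusted p = 0.0615). In RNAi cells neither probe passed (-0.19 and -0.23), although the first did within the 12 arrays (-0.36, adjusted p = 0.00681) and without STAC3 RNAi replicate 4 of day 0 (-0.31, adjusted p = 0.0467). E2f3 did not pass in either treatment (-0.08 to 0.11).

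Tfdp1 fell in both treatments, by 1.05 (log2 fold change -1.05, SE 0.08, limma adjusted p = 8.4e-08) in RNAi cells and by 0.68 (-0.68, SE 0.09, limma adjusted p = 2.59e-05) in control cells. Within the 12 arrays these were -1.09 and -0.64, and within the 6 arrays -1.05 and -0.50 (the second not passing, adjusted p = 0.0590). Its means, in falling order, were 10.82 ± 0.10 in RNAi cells of day 0 and 9.77 ± 0.12 in RNAi cells of day 1 (SD, n = 4 each), then 9.40 ± 0.20 (SD, n = 3) in controls of day 0 and 8.72 ± 0.10 (SD, n = 4) in controls of day 1.

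No repressor member was called higher at day 1 than at day 0 in either treatment. E2f5 had 9.05, 9.09, 9.02 and 9.12 at day 1 against 9.47, 9.50, 9.29 and 9.37 at day 0 in RNAi cells. In control cells it had 9.00, 9.16, 9.22 and 9.05 at day 1 against 9.62, 9.37 and 9.45 at day 0. The days did not overlap in either treatment. The log2 fold changes were -0.34 (SE 0.07, limma adjusted p = 0.000681) in RNAi cells and -0.38 (SE 0.07, limma adjusted p = 0.000685) in controls. They were -0.36 and -0.32 within the 12 arrays and -0.30 and -0.39, not passing, within the 6.

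All 5 probes of E2f6 fell in RNAi cells, by 0.18 to 0.41 (limma adjusted p of 0.00122 to 0.0151), and in each the day 1 samples lay below the day 0 samples. The brightest of them had 9.81, 10.00, 9.99 and 9.85 at day 1 against 10.38, 10.28, 10.44 and 10.12 at day 0. Within the 12 arrays 3 of the 5 passed, and within the 6 arrays none did, at values of -0.27 to -0.18. The second probe was also lost without STAC3 RNAi replicate 1 of day 0 (-0.15, adjusted p = 0.0514). In control cells that brightest probe alone was called (-0.29, SE 0.10, adjusted p = 0.0346), with overlap between the days, and it did not pass within the 12 arrays (-0.20) or the 6 (-0.21). Single samples decide it: the call was lost without control day 0 replicate 2 or 3 or control day 1 replicate 1 or 2 (-0.28 to -0.21, adjusted p up to 0.135). Another E2f6 probe (-0.24, adjusted p = 0.157) passed in controls only without control day 1 replicate 3 (-0.35, adjusted p = 0.0312). The difference between the treatments did not pass for any E2f6 probe.

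E2f8 had 6.82, 6.76, 6.74 and 6.84 in RNAi cells of day 1, all under the detection level, against 7.11, 7.21, 7.10 and 7.23 at day 0. Since a level under detection gives only a bound, the fall was at least 1.22-fold with 6.88 taken as the floor. The fitted value, without that floor, was -0.37 (limma adjusted p = 4.61e-05). It was -0.35 within the 12 arrays and -0.43 within the 6, where day 0 has a lone RNAi sample. In controls E2f8 had 7.0, 6.95, 6.88 and 6.83 at day 1 against 7.06, 6.94 and 6.92 at day 0, a difference of -0.05 (adjusted p = 0.540). E2f4 and the 5 probes of Tfdp2 did not pass in either treatment, with differences of -0.12 to 0.17. In control cells the brightest Tfdp2 probe (0.17, SE 0.08, adjusted p = 0.130) passed with the replicate number as a block (0.21, adjusted p = 0.0377). Between the days 9 of 19 probes were called in RNAi cells, all downward, beside 41.4% of all probes (20.7% up and 20.8% down). The 5 probes of E2f6 are among them. By the brightest probe of each gene, 5 of 9 members fell and none rose, beside 21.2% and 24.2% of all genes. In control cells 6 of 19 probes were called, 3 in each direction, beside 35.8% of all probes (17.7% up and 18.1% down). By gene, 2 of 9 members rose and 3 fell there, beside 20.7% and 19.1% of all genes. The days did not overlap for 11 of 19 probes in RNAi cells, beside 37.6% of all probes, and for 7 of 19 in control cells, beside 41.1%.

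**Figure D3:**
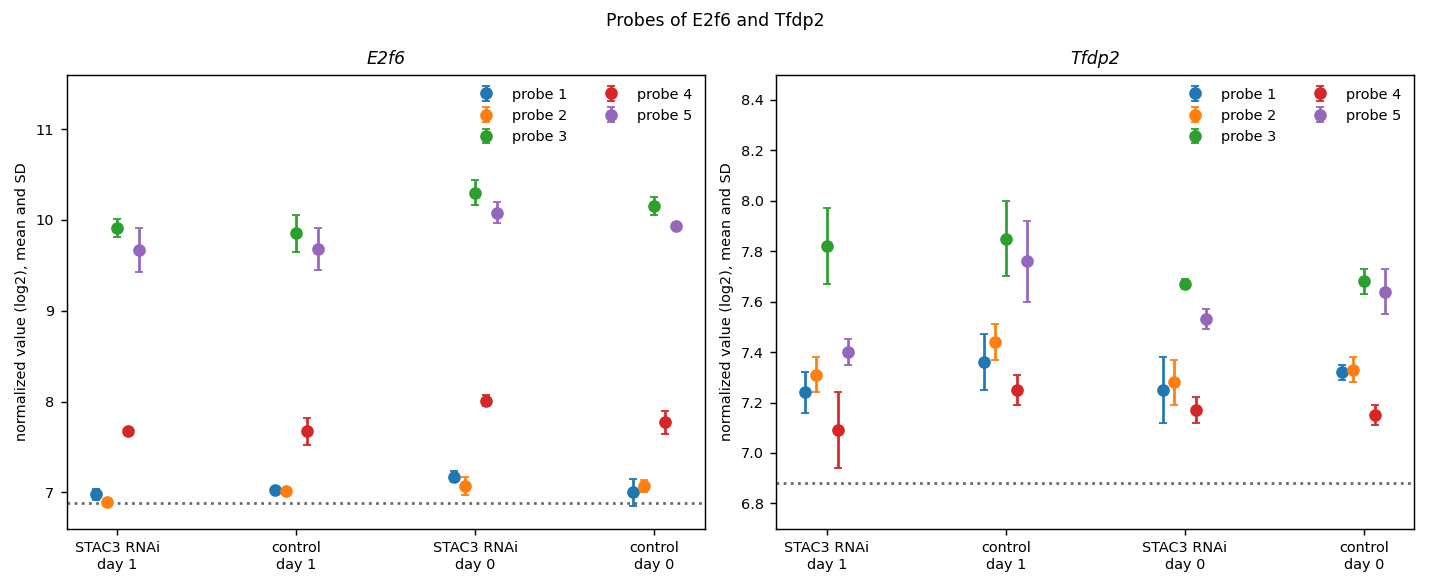
Mean and SD (n = 4, or 3 for control at day 0) of each detected probe of E2f6 and of Tfdp2 in the 4 groups, on the authors' log2 scale, with axes that do not start at 0. The dotted line is the detection level of 6.88. All 5 E2f6 probes lie lower in RNAi cells at day 1 than at day 0, while the Tfdp2 probes move little apart from probe 5, which is lower in RNAi cells than in controls at day 1.

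The partners of the family were described by lists of textbook genes, which were chosen with earlier results of these data known. Each gene is represented by its brightest probe. Over all 10146 genes, 19.9% were called up and 17.8% down at day 1, and 8.04% up and 6.63% down at day 0. Between the days 24.2% rose and 21.2% fell in RNAi cells, and 20.7% rose and 19.1% fell in controls, while 2.77% gave a higher and 2.7% a lower effect at day 1 than at day 0.

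Among the 3 pocket proteins, which bind E2Fs and block or repress their targets, Rb1 fell by 0.53 (log2 fold change -0.53, SE 0.16, limma adjusted p = 0.0214) in RNAi cells at day 1 and gave 0.01 at day 0. Rbl1, encoding p107 and itself an E2F target, was 0.08 at day 1, not passing, and rose by 0.39 (SE 0.08, limma adjusted p = 0.00379) at day 0. Rbl2 did not pass on either day (-0.01 and 0.07). From day 0 to day 1 Rb1 gave 0.32, not passing, in RNAi cells and rose by 0.86 (SE 0.18, limma adjusted p = 0.00120) in controls, but its difference between treatments (-0.54) did not pass. Rbl1 fell by 1.05 in RNAi cells and by 0.74 in controls (log2 fold changes -1.05 and -0.74).

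Of the 8 cyclins and kinases that act on the pocket proteins, 1 rose and 1 fell in RNAi cells at day 1, with a median of -0.10, and 3 rose and none fell at day 0, with a median of 0.20 (0.09 with each gene taken by the median of its probes). Cyclin E2, Ccne2, rose by 0.26 (SE 0.08) at day 1 and by 0.89 (SE 0.09) at day 0, and cyclin D2, Ccnd2, fell by 0.75 (-0.75, SE 0.14, limma adjusted p = 0.000681) at day 1. Cyclin E1, Ccne1, and its kinase Cdk2 rose at day 0 by 0.38 (SE 0.08) and 0.35 (SE 0.10). The effect on Ccne2 (-0.62), Cdk2 (-0.56) and Ccne1 (-0.46) was lower at day 1 than at day 0 (limma adjusted p = 0.00819, 0.0282 and 0.0226). Between the days 4 of the 8 fell and none rose in RNAi cells, with a median of -0.55. In controls 4 fell and 1 rose, with a median of -0.29. Of the 6 measured kinase inhibitors Cdkn1a, the gene for p21, was the only one called for RNAi against control, at -1.13 (SE 0.08, limma adjusted p = 9.99e-08) at day 1 and -0.33 (SE 0.09, limma adjusted p = 0.0194) at day 0. Those effects differed by -0.80 (SE 0.12, limma adjusted p = 0.00183), and from day 0 to day 1 Cdkn1a rose by 0.36 (SE 0.08) in RNAi cells and by 1.15 (SE 0.09) in controls. Over that interval 2 of the 6 inhibitors rose and 2 fell in each treatment.

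The MuvB core pairs with E2f4 and p130 in resting cells and with B-Myb in dividing cells. Of the 4 measured genes of the core and B-Myb together, 2 were higher in RNAi cells than in controls on each day and none were lower. Mybl2, which encodes B-Myb, rose by 0.22 (SE 0.07, limma adjusted p = 0.0282) at day 1 and by 0.77 (SE 0.08, limma adjusted p = 1.35e-05) at day 0. Lin54, the DNA-binding subunit, rose by 0.33 (SE 0.07, limma adjusted p = 0.00311) and 0.43 (SE 0.08, limma adjusted p = 0.00226). From day 0 to day 1, 3 of the 4 fell in RNAi cells and 2 in controls, and none rose. Of 11 measured genes of the E2f6 repressor complex, 2 were higher in RNAi cells at day 1 and 3 at day 0, and none were lower. Of all genes 19.9% and 8.04% were called up on these days. Ring1, a ubiquitin ligase subunit, rose on both days, by 0.32 (SE 0.06) and 0.31 (SE 0.07), Yaf2 by 0.20 (SE 0.07) at day 1, and L3mbtl2 and Rybp by 0.28 (SE 0.08) and 0.22 (SE 0.07) at day 0. Between the days 5 of the 11 fell and 1 rose in each treatment. The medians were -0.12 in RNAi cells and -0.18 in controls.

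Of 40 textbook E2F target genes 32 were measured, among them Rbl1, Ccne1, Ccne2 and Mybl2, which also stand in the lists above. In RNAi cells 15 rose and none fell at day 1, with a median of 0.23. At day 0 24 rose and none fell, with a median of 0.50. With each gene taken by the median of its probes, these medians were 0.15 at day 1 and 0.38 at day 0. The thymidine kinase gene Tk1 rose by 1.26 (SE 0.10) at day 1 and 0.99 (SE 0.11) at day 0, and the replicative helicase genes Mcm5 and Mcm6 rose by 0.94 (SE 0.10) and 0.66 (SE 0.10) at day 1 and by 1.09 (SE 0.11) and 0.88 (SE 0.11) at day 0. Mcm4 rose by 0.66 (SE 0.13) at day 1. Within the 12 arrays 13 and 24 of the targets rose, and within the 6 arrays 5 and 0. The effect was lower at day 1 than at day 0 for 5 of the 32: Ccne2, Mybl2, Rrm1 (-0.52), Nasp (-0.48) and Ccne1. Without 1 sample this count ran from 4 to 8, the highest without STAC3 RNAi day 1 replicate 3.

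From day 0 to day 1 all 32 measured targets fell in RNAi cells, with a median of -1.56, and 31 of 32 fell in control cells, with a median of -1.16. Tk1 and Mcm5 were at -2.12 and -2.39 in RNAi cells and at -2.39 and -2.25 in control cells, and the ribonucleotide reductase gene Rrm2 was at -1.95 and -2.18. The exception in control cells, Orc1, gave -0.12 (adjusted p = 0.172). In control cells E2f1 and E2f2 rose over the same interval, and Tfdp1, E2f5 and the brightest E2f6 probe fell. In RNAi cells E2f1, E2f5, every E2f6 probe, E2f8 and Tfdp1 fell.

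**Figure D4:**
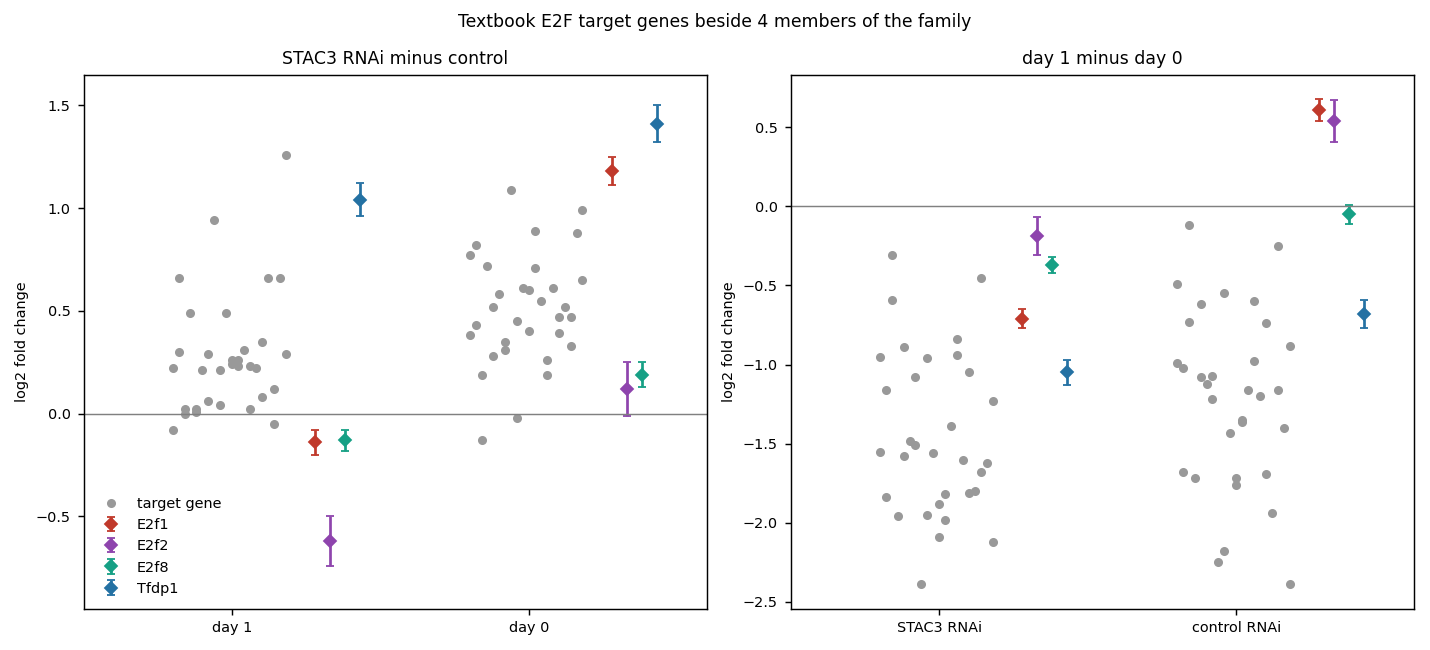
Log2 fold changes of the 32 measured E2F target genes (grey) and of E2f1, E2f2, E2f8 and Tfdp1 (coloured, with SE), for STAC3 RNAi over control at day 1 and day 0 (left) and for day 1 over day 0 in RNAi and control cells (right). In control cells E2f1 and E2f2 lie above 0 while every target lies below it.

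The genes whose values most resembled a member's over the 15 samples were named for each of the 9 measured genes, as a description in which the samples share the 4 groups. Tfdp1 was closest to the histone variant gene H2ax (Pearson r = 0.992), then to Orc5, a subunit of the origin recognition complex (r = 0.975), and Cep57l1 (r = 0.974). E2f6 was closest to Igsf11 (r = 0.949), Ahctf1 (r = 0.917) and Kbtbd6 (r = 0.909), and E2f8 to Nt5dc2 (r = 0.935), the DNA polymerase gene Polh (r = 0.911) and Nt5c3b (r = 0.895). E2f5 was closest to Arsj (r = 0.930), Cldn12 (r = 0.926) and Dek (r = 0.925), and Tfdp2 to Lrp4 (r = 0.934), Tcf12 (r = 0.926) and Rpe (r = 0.912). E2f2 resembled Daglb (r = 0.906), Ube3c (r = 0.896) and Slc12a2 (r = 0.886), E2f3 resembled Ptcd2 (r = 0.889), Ndufc2 (r = 0.881) and Bloc1s5 (r = 0.857), and E2f4 resembled Dhrs9 (r = 0.832), Trpc1 (r = 0.816) and Hk1 (r = 0.809). E2f1 had the lowest closest value of the 9, with Neu3 (r = 0.804), Norad (r = 0.802) and BC003965 (r = 0.798).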

How the data were processed

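RNA of C2C12 cells was measured on Illumina mouse bead arrays. One table holds the authors' normalized log2 values of 24538 probes, which lumi produced per the submitters' processing notes. Its settings are not stated in the labels. The other is the deposited non-normalized table of intensity values and detection p-values per the file headers, for 45281 probes. Names of 12 of its 18 columns disagreed with the value table by rank, so log2 values came from the value table and no column was reassigned. Detection p-values were counted over all arrays of a probe, which needs no names.

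Probes were named from the platform annotation: 20685 had 1 gene symbol, 8 several and 3845 none. Repeat arrays were averaged. The 18408 probes with a detection p below 0.01 on at least 3 arrays entered limma 3.58.1 in R 4.3.3, with a mean for each of 4 groups over 15 samples, empirical Bayes moderation and Benjamini-Hochberg adjustment over all probes for each of 5 comparisons. A probe was called at an adjusted p below 0.05. The fit was tested on simulated data. The number of arrays limits the precision. Between 15146 and 16802 probes were detected per array. Dim values are compressed: a change of 1 in log2 intensity gave 0.639 between the 25th and 50th percentiles and 0.996 between the 90th and 99th, so folds of dim probes are understated.

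The genes named were drawn from all member probes, Stac3, up to 4 called genes with the largest change in each list and comparison, called genes against their list's majority, and the 3 genes closest to each member. For the change between the days within a treatment, some lists are given by counts, and not all such genes are named. Members and lists were chosen with earlier results of these data known. Deviations of same-numbered replicates correlated at over 0.1 in every pair (0.13 to 0.23) for the days in control cells, and not in every pair of the other comparisons (-0.20 to 0.49). The labels do not say what a number shares, so the fit has no block, and blocked values that change a member's call are given beside it or in the closing section. Alternatives covered the probe filter, normalization, repeat arrays, the variance model, the replicate block, the probe that stands for a gene and each sample left out. The division into 12 brighter and 6 dimmer arrays was chosen after seeing the data and is not recorded in the headers. It was also used as a block in a further fit.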

Additional observations from a re-analysis of the deposited data

Results flagged for a closer look

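The effect of the RNAi differed between the days for 3 probes by the test of the difference itself. It was -1.33 for E2f1, -0.74 for the brighter E2f2 probe and -0.32 for E2f8, as log2 effect at day 1 minus that at day 0. All 4 STAC3 RNAi samples of day 1 were under the detection level for E2f8, so its value is a fitted difference and not a measured size. In 57 groups of 4 samples, 2 held a sample far from the others, and chance gives about 1 in 20. A dim probe of E2f6 (probe 2 in the plot of probes of one gene) was at 6.96 in control replicate 4 of day 1, with the other 3 controls at 7.02 to 7.03. The brightest Tfdp2 probe was at 7.63 in STAC3 RNAi replicate 1 of day 0, with the other 3 at 7.68.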

How the results depend on the processing

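None of the 26 called member values reversed under any alternative. Of 2455 member values recomputed over 95 results, 62 lost a call, 28 gained one and 44, all of results that were not called, changed sign. Member probes called ran from 2 to 5 (day 0), 4 to 6 (day 1), 8 to 10 (days in RNAi cells), 4 to 7 (days in controls) and 1 to 4 (difference between the days' effects) when 1 sample was left out, and E2F targets that rose from 20 to 24 at day 0 and 12 to 16 at day 1, with 4 to 8 lower in the difference. In the 6 dimmer arrays alone, where a lone day 0 sample is assumed to vary like the other groups, 1, 2, 2, 1 and 0 member probes were called, 0 and 5 targets rose and 0 were lower in the difference; fewer arrays were tested there. With the replicate block 5 member probes were called for the difference instead of 3 (adding Tfdp1 at -0.40 and the second E2f2 probe at -0.87), and it gave 0.02 and -0.01 at day 0 for Tfdp2 probes 3 and 4. With all 18 arrays and the sample as a random block, 8 targets were lower in the difference. Sign changes in the 6 dimmer arrays were, at day 0, E2f2 (-0.09 and -0.14), E2f3 probe 1 (-0.01), E2f6 probe 5 (-0.03) and Tfdp2 probe 1 (0.15); between days in RNAi cells E2f2 (0.25), E2f3 probe 2 (0.06) and E2f4 (0.06); in controls E2f6 probe 1 (-0.03) and Tfdp2 probes 1 and 2 (-0.01 and -0.04); and in the difference Tfdp2 probe 2 (0.12). In the 12 brighter arrays they were E2f6 probe 3 at day 1 (-0.03), Tfdp2 probes 1 and 4 between days in RNAi cells (0.09 and 0.02), and in the difference E2f5 (-0.04) and Tfdp2 probes 1 and 3 (0.03 and 0.01). First arrays alone gave 0.01 for Tfdp2 probe 3 in the difference. Leaving out 1 sample gave E2f3 probe 1 -0.02 to 0.05 at day 0, -0.01 to 0.07 at day 1 and -0.02 to 0.06 in the difference; Tfdp2 probe 4 -0.01 to 0.04 at day 0; E2f6 probe 3 -0.03 to 0.13 and probe 5 -0.09 to 0.10 at day 1; Tfdp2 probe 3 -0.08 to 0.01 at day 1 and -0.07 to 0.03 in the difference; Tfdp2 probe 1 -0.06 to 0.05 between days in RNAi cells; E2f6 probe 1 -0.05 to 0.11 in controls; and E2f5 -0.03 to 0.09 in the difference. With each gene taken by the median of its probes, the medians of the targets between days were -1.04 in RNAi cells and -0.93 in controls, against -1.56 and -1.16. The causes were not tested. The non-normalized intensities were not analysed as a separate alternative, since repeat arrays there were not closest to their named partners. Signal near background limits E2f7, E2f8 and the dimmer E2f6 probes.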

Other observations

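The brightest Tfdp2 probe (probe 3 in the plot of probes of one gene) took 2 levels at day 1 that went with the replicate number and not with the treatment. Replicates 2 and 4 had 7.97 and 7.94 in RNAi cells and 7.99 and 7.98 in controls, while replicates 1 and 3 had 7.69 and 7.69 in RNAi cells and 7.71 and 7.74 in controls. At day 0 all samples of this probe lay between 7.62 and 7.72. The first arrays of STAC3 RNAi replicate 1 and control replicate 3, which belong to the brighter set, gave 7.72 and 7.71. Their repeat arrays, in the dimmer set, gave 7.66 and 7.76. All day 1 arrays of the dimmer set are of replicates 1 and 3, so replicate number and array set go together in part. The pattern was picked after seeing the data, and its cause was not tested.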
